A study of Mus musculus with 6 samples.

Results

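The genes described here carry the cyclic AMP (cAMP) signal from the cell membrane to gene transcription: 3 adenylyl cyclases (Adcy1, Adcy2, Adcy9), the main catalytic subunit of protein kinase A (Prkaca), 3 phosphodiesterases of the PDE4 family (Pde4a, Pde4b, Pde4d), the transcription factors Creb1 and Crem, and the coactivator Crtc1. The 10 genes are a list of named genes, out of 18193 genes with a probe set of their own. A probe set is a group of short probes on the array that together read 1 transcript region. All 31 probe sets that the platform annotation gives to exactly 1 of these symbols were taken, out of 45101 on the array. Each gene is represented by its brightest probe set, the one with the highest average of the 6 values, and the others serve as a check. All 10 of these main probe sets lay above the array median on at least 2 arrays, which was the condition for being tested.

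The tissue was hippocampus of male DBA/2 mice, an inbred strain, that drank venlafaxine, an inhibitor of serotonin and noradrenaline reuptake, for 30 days. The groups were control (0 mg/kg/day), low dose (30 mg/kg/day) and high dose (100 mg/kg/day), with 10 animals each. Material was pooled within a dose by brain side, so each group had 1 left and 1 right pool and each pool had 1 Affymetrix array, 6 arrays in all. Control 1, low dose 1 and high dose 2 were right pools, and control 2, low dose 2 and high dose 1 were left pools. The first hybridization date took in control 1, low dose 1 and 2 and high dose 1, and the later date the other 2 arrays, control 2 and high dose 2. The RNA integrity number (RIN, higher for less degraded RNA) was 8.7 for control 1, 9.1 and 8.9 for low dose 1 and 2, 8.5 for high dose 1, 7.9 for control 2 and 8.2 for high dose 2, so the later arrays had the lowest RIN of all. A group's 2 arrays thus differ in side, and for control and high dose also in date and RIN, and no array is a replicate in every respect. Nothing in the labels says that the left and right pools came from different animals, and the p-values reflect the spread among these 6 pools alone.

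Hormones and transmitters that act on receptors coupled to the stimulatory G protein raise cAMP through the adenylyl cyclases. cAMP frees the catalytic subunits of protein kinase A, which phosphorylate CREB, and PDE4 enzymes end the signal by breaking cAMP down. CREB binds the cAMP response element in promoters and, with CRTC coactivators that move to the nucleus after dephosphorylation, drives activity-dependent genes; in the hippocampus this route is known for its part in long-lasting synaptic change and memory, and it has long been studied in antidepressant treatment.

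Because CREB reads a short DNA element, the promoters of the members were searched for it, from 250 bases before to 50 after each RefSeq gene start (GRCm38.p6). The sequences are those of the reference strain and not of DBA/2, and 9 of the 10 members, with 15 promoters in all, were matched; Crem was not. The full element TGACGTCA occurred in 0 of the 15 promoters, against 1.79% of 32851 promoters of all genes. The half-site TGACG, or CGTCA on the other strand, occurred in 4 of the 15, 1 each of Pde4a, Pde4b, Adcy9 and Prkaca, against 20.8% of all promoters. Each full element also holds both half-sites, and a match is a description of the letters only. The promoters of Creb1 (chr1:64532554-64532853, plus strand), Pde4b (chr4:102421305-102421604, plus strand) and Prkaca (chr8:83972728-83973027, plus strand) are shown, as a promoter without a half-site, one with 1 and one with 2; capitals mark the half-sites.
Creb1: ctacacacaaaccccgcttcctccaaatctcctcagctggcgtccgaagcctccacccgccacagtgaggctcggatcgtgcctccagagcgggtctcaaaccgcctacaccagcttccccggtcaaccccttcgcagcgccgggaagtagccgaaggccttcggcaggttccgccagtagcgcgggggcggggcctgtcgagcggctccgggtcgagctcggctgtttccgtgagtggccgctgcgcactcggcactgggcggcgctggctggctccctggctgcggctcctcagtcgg
Pde4b: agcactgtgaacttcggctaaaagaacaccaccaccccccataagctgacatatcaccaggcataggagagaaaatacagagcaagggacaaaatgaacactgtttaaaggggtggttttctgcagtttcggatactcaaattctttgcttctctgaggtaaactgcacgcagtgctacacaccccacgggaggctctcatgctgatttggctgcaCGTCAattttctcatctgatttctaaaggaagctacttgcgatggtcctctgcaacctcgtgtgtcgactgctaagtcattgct
Prkaca: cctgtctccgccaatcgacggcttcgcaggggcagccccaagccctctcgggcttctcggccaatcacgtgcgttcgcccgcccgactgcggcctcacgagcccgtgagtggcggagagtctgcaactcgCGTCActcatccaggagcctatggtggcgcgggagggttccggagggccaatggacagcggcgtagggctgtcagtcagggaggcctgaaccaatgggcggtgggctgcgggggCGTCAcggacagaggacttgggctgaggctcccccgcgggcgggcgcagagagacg

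The arrays were close to each other over all probe sets, and date set them apart more than dose. Array medians lay between 7.79 and 7.80 on the log2 scale of the deposited values. Pearson correlations across probe sets ran from 0.9972 to 0.9985 between arrays of 1 date and from 0.9945 to 0.9952 between dates. Of the markers of hippocampal neurons, 8 of 8 lay above the array median on every array. Of 7 measured markers of striatal projection neurons, 6 or 7 did so as well, and so did all markers of choroid plexus, neocortex, oligodendrocytes, astrocytes and microglia that were measured. In pooled tissue, fewer cells of a type and less RNA per cell cannot be told apart.

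None of the 10 members passed the threshold (adjusted p under 0.05) between doses, sides or dates. Each gene was tested there by its main probe set among the 11743 genes. Creb1 and Pde4a passed between dates when every probe set on the array was tested, as did 6.75% of 45037 probe sets. By main probe set, the values of the 10 members differed between arrays by at most 0.44 on the log2 scale, and the arrays of 1 group were often as far apart as the groups. A second bright probe set of Creb1, described below, had a wider range, 0.92. The values of each gene on the 6 arrays follow, by role in the pathway, as log2 expression levels of the main probe set, with replicate 1 before replicate 2 in each group.

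Adcy1, a calcium-stimulated adenylyl cyclase strongly expressed in forebrain neurons, had 12.64 and 12.38 in control, 12.41 and 12.53 at the low dose and 12.38 and 12.47 at the high dose. Control 1 was the highest array and the other 5 lay close together, so the 3 groups overlapped. Adcy2, a cyclase that G protein beta-gamma subunits can stimulate, had 10.73 and 10.66 in control, 10.66 and 10.78 at the low dose and 10.51 and 10.56 at the high dose. Both high dose arrays were below the other 4. Adcy9, a cyclase that is little affected by forskolin, had 11.58 and 11.46 in control, 11.58 and 11.60 at the low dose and 11.46 and 11.56 at the high dose. By main probe set it had the narrowest range of the 10 members, 0.14, with high dose 1 and control 2, both left pools, lowest.

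Prkaca, the kinase subunit that phosphorylates CREB, had 12.28 and 11.86 in control, 12.10 and 12.24 at the low dose and 12.13 and 12.14 at the high dose. Its highest and its lowest array were both controls, so both dosed groups lay inside the control range. The probe set behind these values is of a kind (suffix _x_at) whose probes may also bind other transcripts, and the second Prkaca probe set had 9.41 and 9.10 in control, 9.44 and 9.46 at the low dose and 9.26 and 9.20 at the high dose. In that probe set both high dose arrays were below both low dose arrays and between the 2 controls.

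The PDE4 genes encode the enzymes that rolipram inhibits. Pde4a had 8.38 and 8.17 in control, 8.37 and 8.30 at the low dose and 8.31 and 8.01 at the high dose. The 2 arrays of the later date were its lowest, and the first date's 4 arrays lay within 8.30 and 8.38. Pde4b, the member of the family prominent in inflammatory signalling, had 10.26 and 9.97 in control, 10.21 and 10.31 at the low dose and 10.07 and 9.95 at the high dose. Here too the later arrays were lowest, and high dose 1 came next. Pde4d, which sits in several kinase and receptor complexes, had 10.95 and 10.87 in control, 10.72 and 10.88 at the low dose and 10.77 and 10.75 at the high dose. Both high dose arrays were below both controls, while low dose 1 was the lowest of all.

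Creb1, the transcription factor itself, had 10.77 and 10.42 in control, 10.65 and 10.73 at the low dose and 10.50 and 10.33 at the high dose. Crem, which encodes related activators and the early repressor ICER, had 8.63 and 8.44 in control, 8.50 and 8.71 at the low dose and 8.45 and 8.36 at the high dose. Crtc1, the CREB coactivator most abundant in brain, had 10.26 and 9.85 in control, 10.22 and 10.18 at the low dose and 9.97 and 9.94 at the high dose. In all 3 genes both high dose arrays were below both low dose arrays, and the control arrays lay so far apart (SD 0.24, 0.13 and 0.29 for Creb1, Crem and Crtc1, n = 2) that the control range overlapped the high dose.

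**Figure D1:**
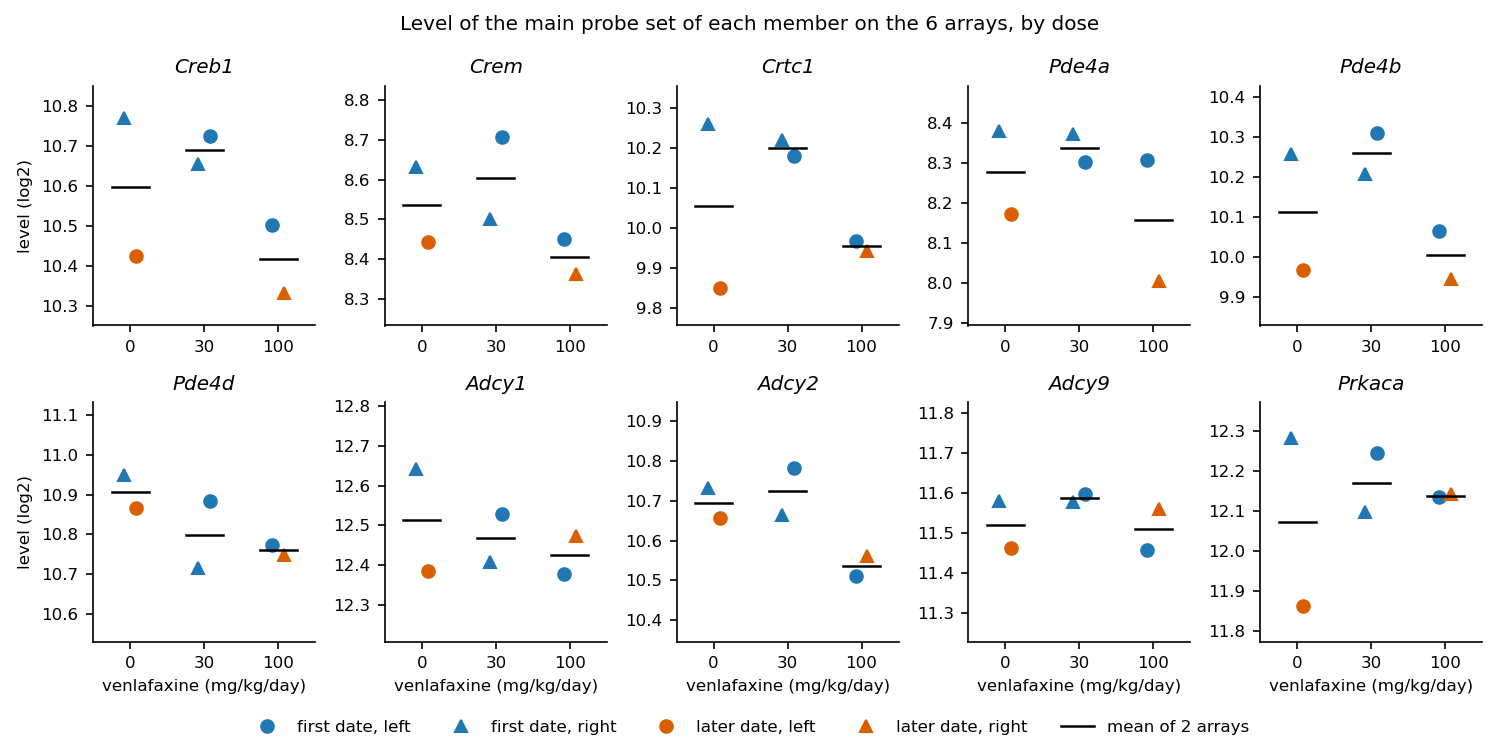
Log2 level of the main probe set of each of the 10 members (vertical axis, a window of equal width in each panel) against the daily venlafaxine dose in mg/kg; circles are left and triangles right pools, blue the first and orange the later hybridization date, and bars the mean of 2 arrays. In Creb1, Crem, Crtc1 and Pde4b the later control array lies near the high dose arrays and the first-date control array near the low dose arrays.

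The first question of the design is whether the high dose differed from control. In 9 of the 10 members the high dose mean was lower, against 64.1% of all tested genes, and the members' median log2 difference was -0.11, against -0.030 over all genes. The exception was Prkaca at 0.065. None of the 10 passed the threshold, where 1 of 11743 genes did (0.00852%), and limma's adjusted p was 1.00 for each member. None had an unadjusted p under 0.05 either, against 2.76% of all genes. Creb1 had the lowest value, -0.18 (SE 0.11, 95% interval -0.42 to 0.056), which is 1.13-fold lower. Adcy2 had -0.16 (SE 0.10, interval -0.37 to 0.052) and Pde4d -0.15 (SE 0.10, interval -0.36 to 0.067), and in these 2 members both high dose arrays lay below both controls, as in 18.7% of all genes. Crem, Pde4a, Pde4b, Crtc1, Adcy1 and Adcy9 lay between -0.13 and -0.011. Over the 10 members the 95% intervals ran from -0.42 at the lowest (Creb1) to 0.31 at the highest (Prkaca).

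The size of that difference depended on which control array was used. Among first-date arrays all 10 members were lower in high dose 1 than in control 1, with a median of -0.19, and 77.6% of all genes were lower in that pair. Among later-date arrays 6 members were lower and 4 higher in high dose 2 than in control 2, with a median of -0.051, and 41.1% of all genes were lower. Crtc1 was at -0.29 in the first pair and 0.092 in the later one. By side, all 10 members were lower in the right high dose pool than in the right control pool, with a median of -0.23, and 71.4% of all genes were lower. In the left pools 6 were higher and 4 lower, with a median of 0.043, and 42.4% of all genes were lower. The same 4 arrays make up both splits, with date and side exchanged, so which of them goes with the unequal pairs cannot be told apart. The 4 pairs are all combinations of these arrays. Pde4d and Adcy2 were lower in each pair, which restates that their groups did not overlap, as in 18.7% of all genes.

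The low dose was compared with control in the same fit. In 8 of the 10 members the low dose mean was higher, against 67.6% of all genes, with a median of 0.067 in the members and 0.038 over all genes. None passed the threshold, against 5 of 11743 genes (0.0426%), and the adjusted p was 1.00 for each. In none did the groups separate, against 21.2% of all genes, and none had an unadjusted p under 0.05, against 3.32%. Pde4b had the highest value, 0.15 (SE 0.11, interval -0.080 to 0.38), followed by Crtc1 at 0.14 (SE 0.12). Pde4d, at -0.11 (SE 0.10), and Adcy1, at -0.045 (SE 0.11), were the 2 lower members. Against control 1, of the same date, low dose 1 was lower in all 10 members (median -0.092), as were 77.6% of all genes (median -0.065). Low dose 2 was lower than control 1 in 6 and higher in 4 (median -0.041), and 38.9% of all genes were lower. Against control 2, of the same side but the later date, low dose 2 was higher in all 10 (median 0.20). In that pair 83.4% of all genes were higher (median 0.14). With the date as a term in the fit, 4 members were higher and 6 lower, with a median of -0.0038, and with RIN as a covariate 2 were higher and 8 lower, with a median of -0.16. This comparison and the one before it share the control arrays.

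The 2 doses were also compared with each other. The high dose mean was lower than the low dose mean in 10 of 10 members, against 77.2% of all genes, and the median was -0.18 in the members and -0.066 over all genes. In 6 members, Creb1, Crem, Crtc1, Pde4b, Adcy2 and Adcy9, both high dose arrays lay below both low dose arrays, as in 37.3% of all genes. Creb1 had -0.27 (SE 0.11, interval -0.51 to -0.037, adjusted p = 0.778 by limma), Pde4b -0.25 (SE 0.11, adjusted p = 0.779) and Crtc1 -0.24 (SE 0.12, adjusted p = 0.798). These 3 had an unadjusted p under 0.05, as did 6.21% of all genes, and none of the 11743 genes passed the adjusted threshold (0%). Within the first date, high dose 1 was lower than low dose 1 in 8 members (median -0.092), against 58.7% of all genes. It was lower than low dose 2, also a left pool, in 9 (median -0.18), against 85.8% of all genes (median -0.12). With quantile normalization, with arrays centred on the median of the tested genes or with RIN as a covariate, 6 members were lower and 4 higher; the RIN covariate brought the members' median to -0.0066, and the date as a term brought it to -0.10. The sign of the Creb1 value also depended on the probe set. The second bright one, 1452901_at, was higher in the high than in the low dose by 0.31 (SE 0.25, adjusted p = 0.989 by limma). On that probe set high dose 1 (10.03) lay below both low dose arrays (10.18 and 10.17). High dose 2 (10.95), of the later date, lay above them, and the low dose has no later array. The average over all Creb1 probe sets differed by 0.037.

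**Figure D2:**
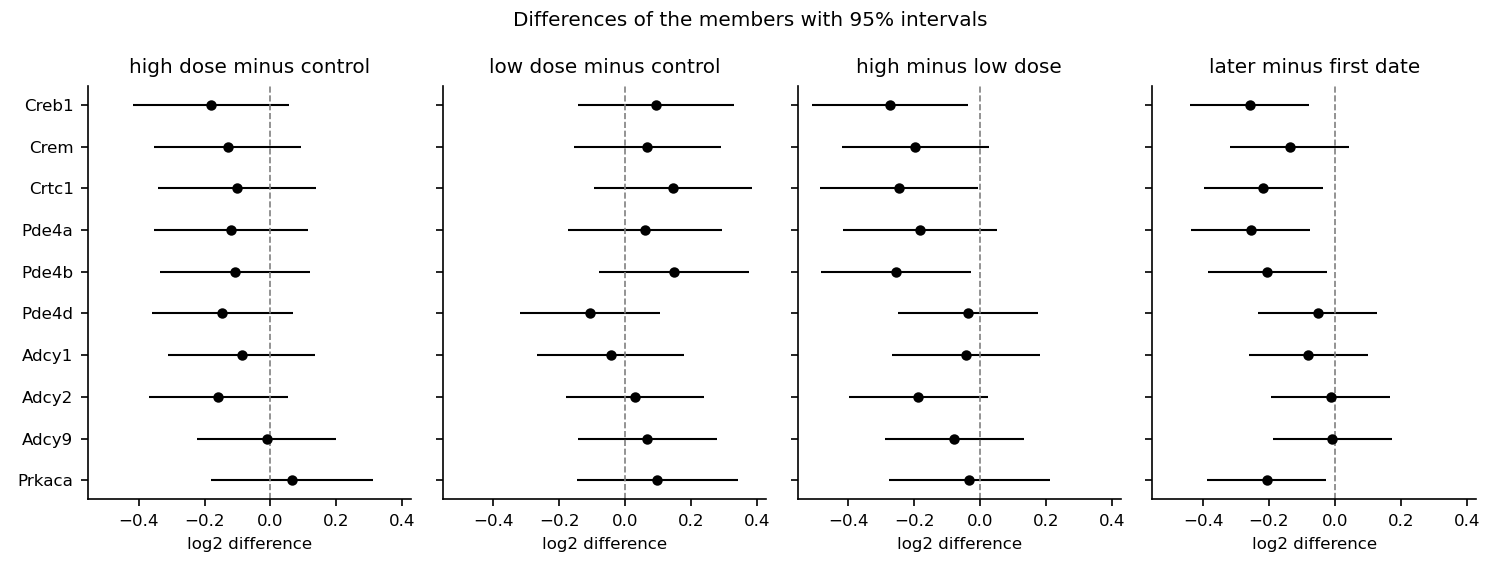
Log2 difference (horizontal axis) of each member in 4 comparisons, with points for the limma estimate and lines for its 95% interval. High minus low dose and later minus first date lie below 0 in all 10 members, and no member passed the threshold after adjustment.

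Markers of other cell types were read in the same contrasts. All 6 tested oligodendrocyte markers were lower in the high than in the low dose (median -0.35) and higher in the low dose than in control (median 0.30), with none called. For high against low dose the groups separated in 5 of the 6, against 37.3% of all genes. For low dose against control they also did so in 5 of the 6, against 21.2% of all genes in either direction. The markers' summed level, on the log2 scale, was 15.64 and 15.61 in control, 15.73 and 15.91 in the low dose and 15.62 and 15.55 in the high dose. Hippocampal neuron markers were lower in 7 of 8 between high and low dose, with a median of -0.099 and summed levels of 14.33 and 14.28 in the high dose and 14.38 and 14.45 in the low dose. The groups separated in 4 of the 8, against 37.3% of all genes. For high dose against control, 6 of 6 tested striatal markers (median -0.33) and 6 of 6 neocortex markers (median -0.20) were lower. The groups separated in 5 of the 6 striatal and 4 of the 6 neocortex markers, against 18.7% of all genes lower. The summed level of the 7 measured striatal markers was 13.10 on control 1, 13.28 on control 2, 13.00 on high dose 1 and 12.68 on high dose 2. By side, 6 of 6 striatal markers were higher in the left pools (median 0.22), while 54.1% of all genes were lower. Control 2 is a left and high dose 2 a right pool. For high dose against control the mean of 7 of 7 choroid plexus markers was higher (median 0.22), but the groups separated in 0 of the 7. Their summed level was 14.95 on high dose 1 and 15.43 on high dose 2, against 15.05 and 15.18 in control. For low dose against control, 7 of 7 choroid plexus markers (median 0.24) and 6 of 8 hippocampal neuron markers (median 0.20) were higher. The groups separated in 4 of the 7 choroid plexus markers, all higher, against 21.2% of all genes in either direction. Of the hippocampal neuron markers, 2 separated as higher and 1 as lower. Between dates 5 of 6 oligodendrocyte markers (median -0.23, 2 called) and 6 of 8 hippocampal neuron markers (median -0.14, 2 called) were lower on the later arrays. Astrocyte (1 called) and microglia markers (2 called, 1 of them higher) were lower in 3 of 5 each, with medians of -0.21. Choroid plexus markers were higher in 5 of 7 (median 0.12, 1 called). Of all genes 68.9% were lower on the later date and 6.97% were called. Between doses 77.2% of all genes were lower in the high than in the low dose. Against control 64.1% were lower in the high dose and 67.6% higher in the low dose. The part of any of these in the members' values was not tested.

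Side was compared with dose as a term. None of the members passed the threshold, nor did any of all tested genes (0%). An unadjusted p under 0.05 was reached by none of the members and by 0.341% of all genes. Left minus right ran from -0.14 in Crtc1 (SE 0.11) to 0.037 in Pde4d (SE 0.11), with 7 members lower and 3 higher in the left pools, against 54.1% of all genes lower. In no member did the 3 left and the 3 right arrays separate, against 2.06% of all genes. Within the low dose, the only group whose 2 sides share a date, 8 members were higher in the left pool, with a median of 0.11, against 83.8% of all genes and a median of 0.094.

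The hybridization date was compared with dose as a term, so that it was estimated within control and within high dose. In all 10 members the later arrays were lower, against 68.9% of all genes, with a median of -0.17 in the members and -0.057 over all genes. None of the 10 passed the threshold, against 6.97% of all genes, but Creb1 and Pde4a did so under several other processing choices, with a lowest adjusted p of 0.0384 and 0.0207. With the mean of all Creb1 probe sets in place of the brightest, Creb1 was higher on the later date, at 0.061. Creb1 had -0.26 (SE 0.092, interval -0.44 to -0.078, adjusted p = 0.0625 by limma) and Pde4a -0.26 (SE 0.092, interval -0.44 to -0.075, adjusted p = 0.0666). Crtc1 (-0.22), Prkaca (-0.21) and Pde4b (-0.21) followed, with adjusted p from 0.141 to 0.176 and an unadjusted p under 0.05, as in 19.5% of all genes. In Creb1, Crem, Crtc1, Pde4a and Pde4b both later arrays lay below all 4 first-date arrays, as in 30.1% of all genes. Adcy9, Adcy2 and Pde4d differed by -0.0076, -0.012 and -0.053 (SE 0.092 each).

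The 2 dose groups did not contribute equally to this date difference. In control all 10 members were lower on the later array, with a median of -0.23, against 78.4% of all genes and a median of -0.11. The lowest values there were those of Prkaca (-0.42) and Crtc1 (-0.41). In the high dose 6 were lower and 4 higher, with a median of -0.024, against 51.5% of all genes lower and a median of -0.0042. Pde4a (-0.30) and Creb1 (-0.17) were lowest in that pair. The control pair also differs in RIN by more than the high dose pair, and date and RIN cannot be told apart here. Side differs within each pair as well: the later array was the left pool in control and the right pool in the high dose. Within a pair, side cannot be told apart from date and RIN. With quantile normalization 7 members were lower and 3 higher on the later date, and with centred arrays 6 were lower and 4 higher.

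**Figure D3:**
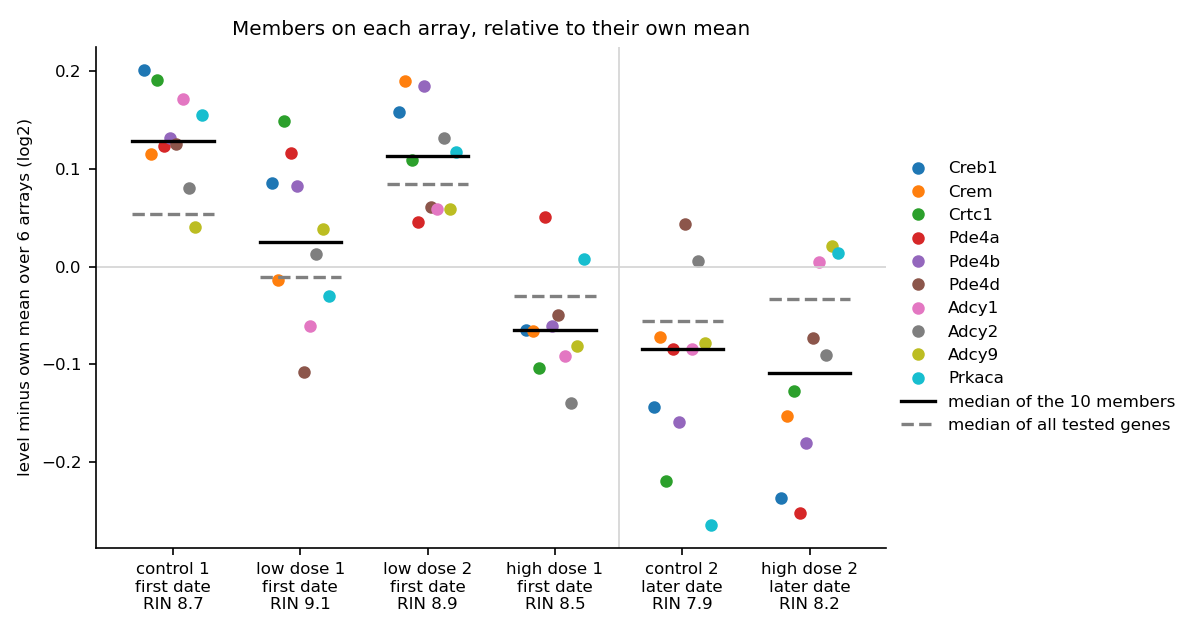
Level of each of the 10 members on each array minus its own mean over the 6 arrays (log2, vertical axis), with the members' median as a solid and the median of all tested genes as a dashed bar; the vertical line separates the first from the later date. All 10 members lie above their own mean on control 1 (median 0.13) and low dose 2 (median 0.11), and the medians are -0.065, -0.084 and -0.11 on high dose 1, control 2 and high dose 2.

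Read by array rather than by group, the members had 2 high arrays. Control 1 held the highest value of 6 members and low dose 2 that of the other 4. High dose 2 held the lowest value of 4 members, high dose 1 of 3, control 2 of 2 and low dose 1 of 1. Over all tested genes the medians were highest on the same 2 arrays, at 0.085 on low dose 2 and 0.054 on control 1, and lowest on control 2, at -0.056. By main probe set Creb1 had the widest range of the 10, 0.44, with control 1 highest and high dose 2 lowest. Among 11742 other tested genes, the profiles nearest to that of Creb1 over the 6 arrays were those of Mcm7, a subunit of the replicative helicase, Gad1, an enzyme of GABA synthesis, and Gt(ROSA)26Sor, a noncoding RNA locus, with root mean square differences of 0.0154, 0.0155 and 0.0162. The nearest member was Pde4b, at rank 72 with 0.0390.

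Other probe sets of the same genes did not always follow the main one, and Creb1 was the clearest case. A second bright Creb1 probe set, 1452901_at, had 10.76 and 10.95 on the later arrays (control 2 and high dose 2), against 10.27, 10.18, 10.17 and 10.03 on the first-date arrays (control 1, low dose 1, low dose 2 and high dose 1). The main probe set, 1428755_at, had its 2 lowest values on those later arrays. When every probe set was tested separately, 1452901_at was higher on the later date by 0.71 (SE 0.086, adjusted p = 3.74e-07 by limma) and 1428755_at lower by 0.26 (-0.26, SE 0.080, adjusted p = 0.0411). The platform annotation gives both the same source sequence. Their difference, 1452901_at minus 1428755_at, was 0.34 and 0.62 on the later arrays and between -0.55 and -0.48 on the 4 first-date arrays. The first-date values of 1452901_at had control 1 highest and high dose 1 lowest, as did those of the main probe set. The other 4 Creb1 probe sets lay below the array median on all arrays.

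Adcy9 differed among its probe sets in the same comparison. The main probe set, 1418586_at, differed by -0.0076 (SE 0.081) on the later date. The 3 others, all bright, were at -0.32 (SE 0.081, adjusted p = 0.00999, 1419811_at), -0.24 (SE 0.080, adjusted p = 0.0693, 1449620_s_at) and -0.21 (SE 0.079, adjusted p = 0.115, 1434454_at). Of these 1419811_at had 11.20 and 11.21 on the later arrays, against 11.63, 11.59, 11.60 and 11.41 on the first-date arrays, with no overlap of the dates. Crem had 2 bright probe sets, which differed in sign on the later date (-0.14 for 1449037_at and 0.14 for 1418322_at), with neither past the threshold. A dim Pde4d probe set, 1459311_at, was higher on the later date by 0.27 (SE 0.079, adjusted p = 0.0299), while the main one was at -0.053.

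**Figure D4:**
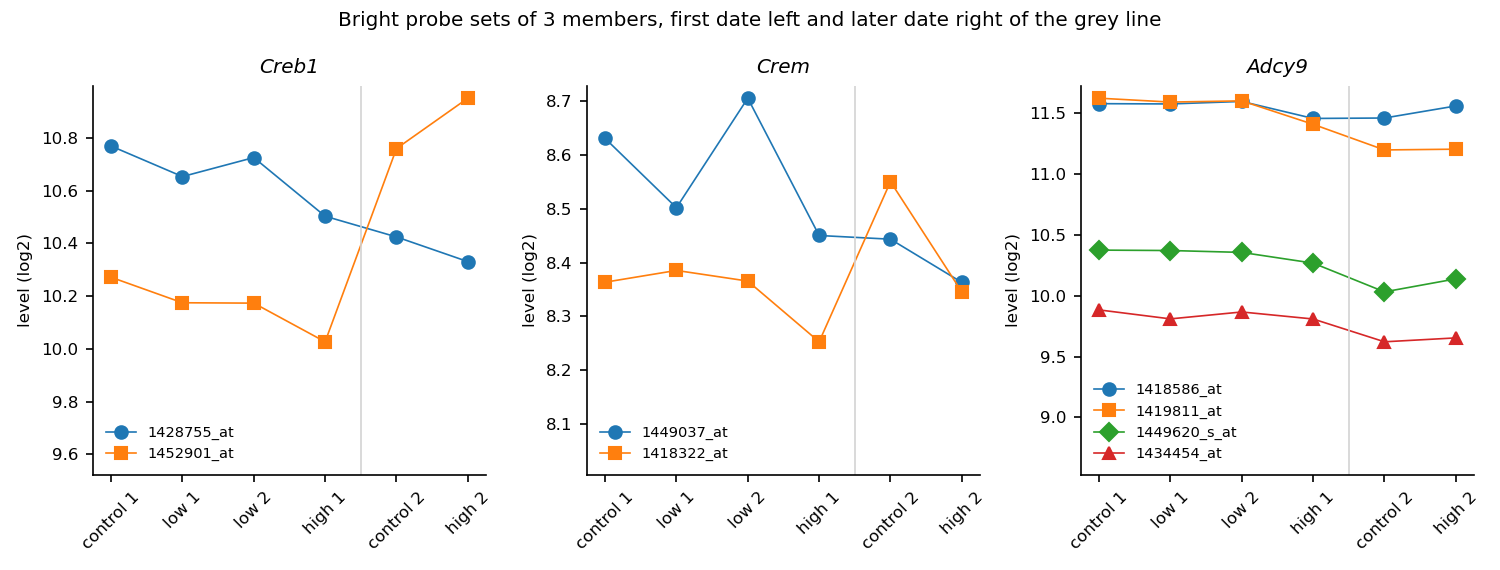
Log2 level (vertical axis) of the bright probe sets of Creb1, Crem and Adcy9 on the 6 arrays, with the grey line between the first and the later date; lines only join values of 1 probe set. The 2 Creb1 probe sets cross between the dates, while the 4 Adcy9 probe sets are lower on the later date by 0.0076 (1418586_at, the main one) to 0.32 (1419811_at, the only one past the threshold).

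Over all 31 member probe sets, 5 passed the threshold between dates, 2 higher and 3 lower, against 6.75% of 45037 probe sets. In the comparisons of doses and sides 0 of the 31 passed, and 0 of 45037 did. Of the 21 probe sets that did not stand for a gene, 9 were bright. Those 9 had the sign of the main one in 7 for high dose against control, in 6 for low dose against control, in 7 for high against low dose and in 6 for the dates. In Pde4b all 3 bright probe sets were lower in the high dose than in control: the second, 1422473_at, had 9.37 and 9.26 in the high dose, against 9.60 and 9.51 in control, and the third, 1442700_at, had 8.33 and 8.34, against 8.50 and 8.55. Their log2 differences were -0.24 and -0.19, each lower within both dates and with no overlap of the groups, as in 18.7% of all genes by their main probe set, and adjusted p was 1.00 for both.

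Other genes of the pathway were read from a list of 69 partners, of which 61 were on the array and 52 were tested. For high dose against control none of the 52 passed, against 0.00852% of all genes. Of the 52, 49 were lower and 3 higher, against 64.1% of all genes lower. The median of the partners was -0.110, against -0.030 over all genes and -0.114 in the 10 members. Those with the largest moderated statistic were Sik2 (-0.27, SE 0.10), a kinase that keeps CRTC coactivators out of the nucleus, Pde10a (-0.33, SE 0.13), a striatal phosphodiesterase, Ppp1r1b (-0.31, SE 0.12), the phosphatase inhibitor DARPP-32, and Drd1 (-0.32, SE 0.12), a dopamine receptor that stimulates cyclases, each with adjusted p = 1.00. Pde10a, Ppp1r1b and Drd1 are also on the list of striatal markers, 6 of 6 of which were lower in that contrast. Drd1 had 9.91 on control 2 and 9.26 to 9.43 on the other arrays. Pde10a had 10.57 on high dose 2 and 10.98 to 11.22 on the other arrays. For low dose against control 26 partners were higher and 26 lower, against 67.6% of all genes higher. None was called, against 0.0426% of all genes. Pde1a (-0.46, SE 0.14), a calcium-dependent phosphodiesterase, stood first. It had 10.39 and 10.39 at the low dose, against 10.70 on control 1 and 11.00 on control 2. Control 2 is of the later date, on which Pde1a was higher, and both low dose arrays are of the first. For high against low dose none was called, against 0% of all genes. There 47 partners were lower and 5 higher, against 77.2% of all genes lower, and the median was -0.12, against -0.066 over all genes. Between sides none was called, against 0% of all genes.

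The date comparison called 7 of the 52 partners, 1 higher and 6 lower, against 6.97% of all genes. Pde1a was higher on the later date, with 11.00 and 11.12 on control 2 and high dose 2, against 10.70, 10.39, 10.39 and 10.49 on the first-date arrays (log2 difference 0.46, SE 0.092, adjusted p = 5.79e-05 by limma). Akap5, the anchor that holds protein kinase A at synapses, was lower by 0.38 (-0.38, SE 0.092, adjusted p = 0.00166). Prkar2b, a regulatory subunit of the kinase (-0.35, adjusted p = 0.00503), and Pkib, an inhibitor of the kinase (-0.32, adjusted p = 0.0125), were lower as well. In Pde1a both later arrays were above all others. In Akap5, Prkar2b and Pkib both were below all others, as in 30.1% of all genes. These genes were named for the largest moderated statistic in this comparison, so their separation is not independent of that choice.

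A list of 24 genes known as CREB targets, 22 of them tested, served to set transcripts downstream of the pathway beside its members. It was chosen with results of these data known, so its direction is not independent evidence. For high dose against control 1 of the 22 was called, against 0.00852% of all genes: Egr2, an immediate early transcription factor, with 8.01 and 8.01 in the high dose, against 8.64 and 9.06 in control (log2 difference -0.84, SE 0.12, adjusted p = 0.00226 by limma). For low dose against control 4 were called, all lower, against 0.0426% of all genes: Egr2 (-0.93, adjusted p = 0.000394), Egr1 (-0.67, adjusted p = 0.0138), Arc (-0.65, adjusted p = 0.0138) and Fos (-0.61, adjusted p = 0.0193). The list medians were -0.31 and -0.18, against -0.11 and 0.067 in the 10 members, and the 2 comparisons share their controls. For high against low dose none of the 22 was called and the median was -0.026, against -0.18 in the members. Between dates 2 of the 22 were called, against 6.97% of all genes: Inhba higher (0.41, SE 0.092, adjusted p = 0.000640) and Vgf lower (-0.40, SE 0.092, adjusted p = 0.000872).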

How the data were processed

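The values used are log2 expression levels of 45101 probe sets on 6 arrays as deposited by the authors, who used RMA (background subtraction, normalization between arrays and summary of probes) in R 3.0.1, per the submitters' processing notes; the sources used here do not give RMA's settings. Labelling started from 100 ng of RNA, per the labels' protocols. That the scale is log2 was inferred from its range, 6.10 to 15.31. Array 95th percentiles run from 11.45 to 11.64. The number of arrays limits the precision. No 2 arrays were identical.

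Leaving out 64 control probe sets, the platform annotation names 1 symbol for 34945 (several for 932, none for 9160), and Entrez identifiers linked 34741 of them to current RefSeq symbols. Of 18193 genes 9010 had more than 1 probe set. Genes exceeding the array median on 2 or more arrays, 11743 in number, entered two-sided limma tests (version 3.58.1, R 4.3.3, functions lmFit and eBayes) with Benjamini-Hochberg adjustment across them and a threshold of 0.05, with 1 coefficient per dose group, and side or date added for those comparisons. In the side and date fits all genes shared 1 estimate of the spread. Fits were tested on simulated arrays. Pairs of arrays are plain subtractions.

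All 10 members are named in every comparison, the 3 genes nearest in profile to the member of widest range, and at most 4 genes of each pathway list by moderated statistic. The members, lists and tests were chosen with earlier results of these data known. Over the tested genes, replicate 2 minus replicate 1 correlated at 0.540 between high dose and control, where the number equals the hybridization date in the labels, at 0.0765 between low dose and control and at 0.133 between high and low dose. Alternatives were other terms, filters, probe set rules, normalization, variance prior, arrays of the first date and each array left out; centring on the median of the tested genes was chosen after seeing the data.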

Additional observations from a re-analysis of the deposited data

Results flagged for a closer look

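Each date had 1 high dose and 1 control array, and 4 of the 10 members gave high dose minus control differences of opposite sign on the 2 dates. Of all genes, 77.6% were lower in the first date's pair and 41.1% in the later date's. Many genes outside the list thus also changed sign, and their share was not counted. Crtc1 was at -0.29 in the first date's pair and at 0.092 in the later date's. Prkaca was at -0.15 in the first and at 0.28 in the later pair. Adcy1 had -0.26 in the first and 0.088 in the later pair, and Adcy9 had -0.12 and 0.099 in the same order. Each value rests on 1 array a group, the difference between the dates was not tested, and the side of each group is exchanged between the dates.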

How the results depend on the processing

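For the members, 845 values were computed under the alternatives, of which 744 kept the sign of the value reported and 101 did not. The RIN covariate brought the members' median to -0.16 for low dose against control, where 0.067 is reported, and to -0.0066 for high against low dose, where -0.18 is reported; the date as a term brought these to -0.0038 and -0.10. No member passed the threshold in any dose or side comparison under any alternative, the replicate block included (0 members in each of the 5 comparisons). Between dates the count of members past the threshold, 0 as reported, was 2 without a filter, 2 with every probe set tested separately and 2 with quantile normalization (Creb1 and Pde4a in each), 1 when a gene's probe sets were averaged and 1 with the trend and robust variance prior (Pde4a in both), and 0 to 2 without 1 array. The 2 without 1 array were Crtc1 (-0.41, adjusted p = 0.0339) and Prkaca (-0.42, adjusted p = 0.0298), each time a high dose array was left out, which leaves the date to the controls alone. Crem had no value when probe sets were averaged, since its average was not above the median on 2 arrays, and Creb1 then had 0.061 in place of -0.26 between dates. Of all genes, 1032 of 18193 were called between dates without a filter and 1499 of 11743 with quantile normalization. With averaged probe sets 517 of 10812 were called, and 673 of 11743 with the trend and robust variance prior. With every probe set tested, 3040 of 45037 were called, among them the second bright Creb1 probe set in the opposite direction (0.71). The replicate block left 33 genes called between dates, against 818 without it, and called 10 genes for high dose against control, 32 for low dose against control and 45 for high against low dose, against 1, 5 and 0. Counts over all genes ranged without 1 array from 0 to 178 for high dose against control, from 0 to 546 for low dose against control, from 0 to 152 for high against low dose and from 154 to 764 between dates; 178 came without control 2 and 546 without control 1. Under the other alternatives the counts ranged from 0 to 44 (date as a term), 0 to 32 (replicate block), 0 to 45 (replicate block) and 33 (replicate block) to 3040 (every probe set) in the same order, and left against right from 0 to 17 (RIN covariate), against 0.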
